A study of Rattus norvegicus with 7 samples.

Results

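The intermediate filament genes of neurons and glia studied here are vimentin (Vim), nestin (Nes), the neurofilament subunits Nefl, Nefm and Nefh, alpha-internexin (Ina) and peripherin (Prph). Members were all probe sets to which the platform annotation gives 1 of 8 named gene symbols and no other symbol. For 7 of these genes 11 probe sets were found, among 8740 probe sets and 4736 gene symbols in all, and Gfap was not analysed here. Nes, Nefl, Nefh and Ina had 2 probe sets each and Vim, Nefm and Prph had 1 each.

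RNA came from primary cultures of hippocampal neurons and hippocampal astrocytes of Wistar rats, labelled as 17-day-old, kept in DMEM with N1 supplement. Neurons had been given grape seed extract, a polyphenol-rich plant extract, at 0, 1 or 10 µg/ml and astrocytes at 0, 1, 10 or 100 µg/ml, for 24 h. Each of these 7 combinations was measured on 1 Affymetrix array, so a value at a single dose has no error, and the number of cultures or animals behind an array is not stated in the labels. The only spread within a cell type is that between arrays at different doses, which holds any effect of the extract and may otherwise be technical.

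Intermediate filaments are rope-like polymers that give a cell mechanical strength. Each cell type builds them from its own subunits. Nestin and vimentin form the filaments of neural progenitors and immature glia, and astrocytes keep vimentin. Neurons replace them with neurofilaments, in which Nefl is the core subunit, Nefm and Nefh carry long side arms and Ina is an early partner in central axons. Prph is best known from peripheral neurons and from neurons that send axons out of the brain and spinal cord.

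Signals are the intensities the authors deposited, on a linear scale on which the array medians lay between 65.4 and 87.7. For log2 values, a floor of 17.9, the 25th percentile over probe sets and arrays, replaced lower signals. A probe set was tested if its mean log2 signal lay above that of 79.9, the median of all signals, in at least 1 cell type, which held for 4709 probe sets. Among the 11 member probe sets 8 passed, 3 of them only through the neurons and 1 only through the astrocytes, so that these 4 were bound to differ and counts over the 8 are descriptions. Neuron markers set the cultures apart as labelled: the summed signal of 22 of them was 34615 to 36323 on neuron arrays and 4438 to 5127 on astrocyte arrays. Of 17 tested 9 passed the filter only through the neurons, and the 8 that passed in both cell types were all called higher in neurons (limma), where 25% of all tested probe sets were called higher and 19.3% lower. Astrocyte markers separated the cultures less. The summed signal of 16 astrocyte markers was 102876 to 108868 on neuron arrays and 106097 to 126163 on astrocyte arrays, and of the 13 that passed in both cell types 3 were called higher and 6 lower in neurons, against the same 25% and 19.3%. Microglial markers summed to 15538 to 18930 on neuron arrays and 32262 to 40684 on astrocyte arrays (13 genes), and fibroblast and meningeal markers to 35739 to 39470 on neuron arrays and 66296 to 80897 on astrocyte arrays (15 genes). Oligodendrocyte lineage markers summed to 2387 to 2498 on neuron arrays and 9374 to 14906 on astrocyte arrays (9 genes), and cell cycle genes to 22685 to 24453 on neuron arrays and 7832 to 10343 on astrocyte arrays (14 genes). Of the 9 microglial markers that passed in both cell types, 0 were called higher and 8 lower in neurons. For 8 fibroblast and meningeal markers these counts were 2 and 5, for 4 oligodendrocyte markers 0 and 3, and for 12 cell cycle genes 11 and 0. They stand beside the same 25% and 19.3%. Bright genes rule such sums: at shared doses Igfbp2 had mean signals of 14139 in neurons and 9080 in astrocytes, and Igf2 95.1 and 10956. The part of these other cells in the values below was not tested. In cultures measured whole, fewer cells of a type and less RNA per cell cannot be told apart.

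**Figure D1:**
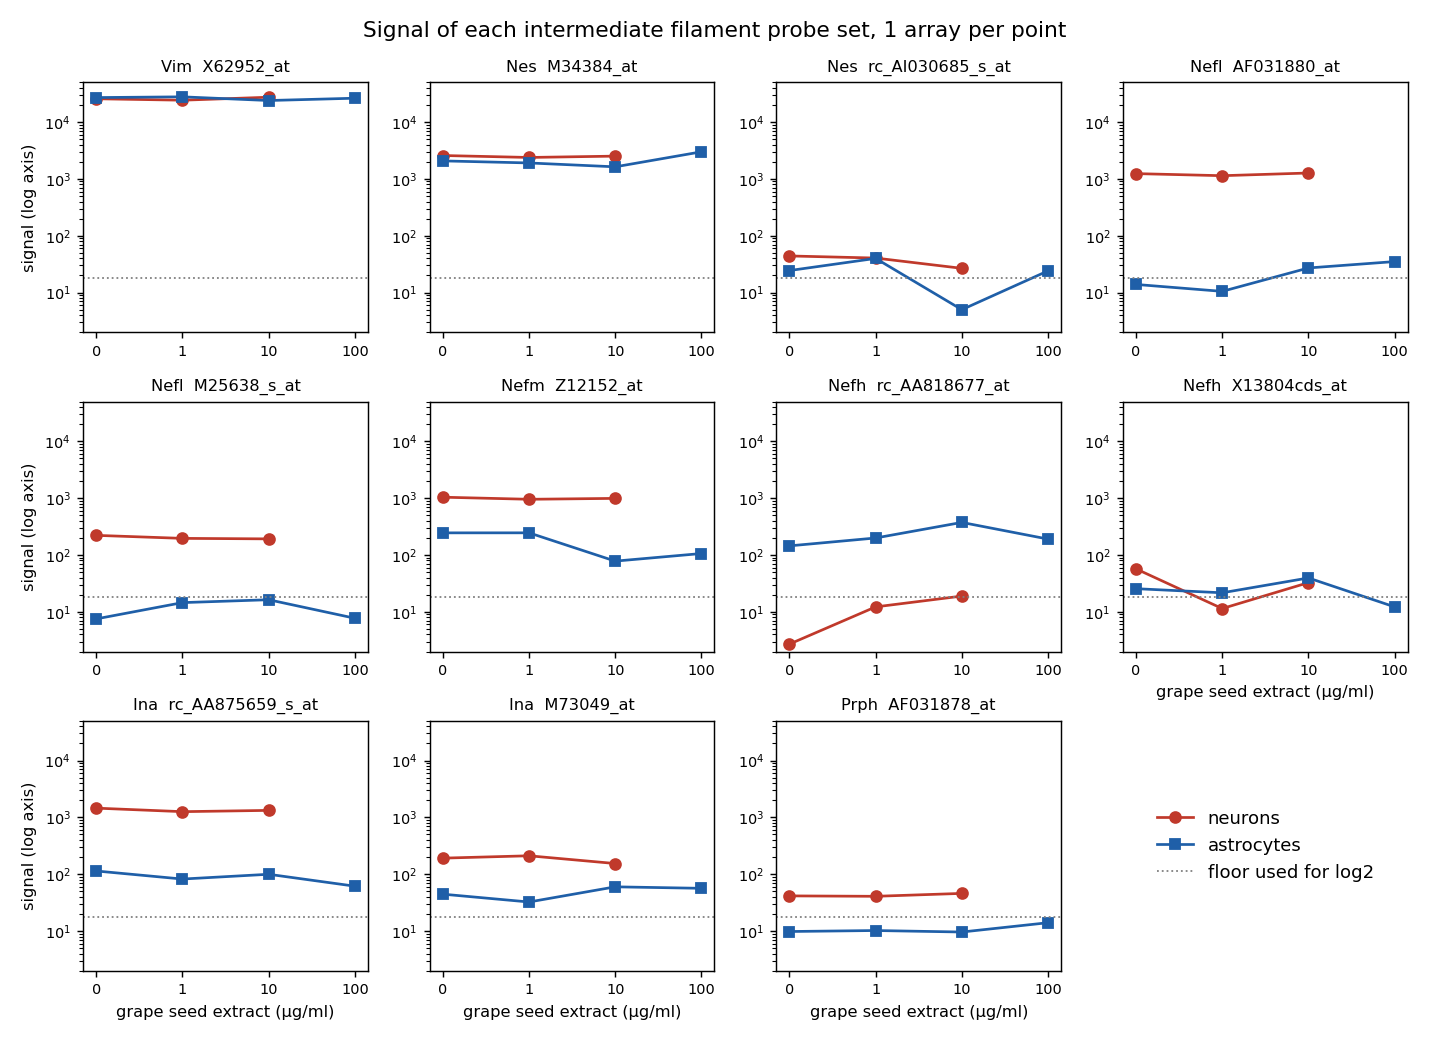
Deposited signal (log axis) of the 11 member probe sets against the dose of grape seed extract in µg/ml. Each point is 1 array, with neurons in red circles and astrocytes in blue squares, and the dotted line is the floor of 17.9. Nefl and Ina separate the cell types at every dose, Vim lies at the same level in both, and the 2 probe sets of Nefh do not show the same order.

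The first comparison asked how the filament genes differed between the cultures at the doses both received, 0, 1 and 10 µg/ml (3 arrays of each cell type). Neurons had higher signals for Nefl, Nefm and Ina, by 4.16-fold to 59.1-fold, and slightly higher signals for Nes. Vim was at the same level in both, among the brightest probe sets on every array. For Nefh the 2 probe sets disagreed, and the one that differed was higher in astrocytes. In limma fits across all tested probe sets, 6 of the 8 member probe sets were called higher in neurons and 1 lower (adjusted p below 0.05), where 25% of all tested probe sets were called higher and 19.3% lower. The median log2 difference, neurons minus astrocytes, was 2.31 over the 8 member probe sets and 0.07 over all 4709. Member arrays did not overlap between cell types for 7 of the 8, as for 56.6% of all tested probe sets. These values include 3 probe sets that passed the filter only through the neurons and 1 only through the astrocytes, all bound to differ. Of the 4 that passed in both cell types, Nes, Nefm and the bright Ina probe set were called higher in neurons and Vim was not called.

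The core neurofilament subunit Nefl differed most. Its brighter probe set, AF031880_at, had signals of 1239, 1139 and 1269 in neurons at 0, 1 and 10 µg/ml, against 13.9, 10.5, 27.1 and 35.1 in astrocytes at 0, 1, 10 and 100 µg/ml. Every neuron array lay far above every astrocyte array, and 2 astrocyte signals were under the floor. The log2 difference was 5.88 (SE 0.20, limma adjusted p = 7.32e-07). The dimmer probe set, M25638_s_at, had signals of 221, 196 and 192 in neurons, against 7.5, 14.5, 16.3 and 7.7 in astrocytes. All astrocyte values were under the floor, so the difference was at least 11.3-fold (adjusted p = 5.62e-06). The floor removes the astrocyte spread here, and with no floor the log2 difference was 4.06 (limma adjusted p = 7.14e-05). Both probe sets gave the same order, but both passed the filter only through the neurons and so were bound to differ.

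Nefm, the medium subunit, lies next to Nefl on rat chromosome 15, with 0 protein-coding genes between them in RefSeq. Its probe set Z12152_at had signals of 1038, 954 and 989 in neurons, against 245, 245, 77.9 and 106 in astrocytes at 0, 1, 10 and 100 µg/ml. Astrocytes carried a clear signal for it, unlike for Nefl, and no astrocyte array reached the lowest neuron array. The log2 difference at the shared doses was 2.57 (SE 0.42, adjusted p = 0.00182), and its SE, the largest of the 8, holds the drop between the astrocyte arrays at 1 and 10 µg/ml.

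Ina, the neurofilament partner of central neurons, was measured by a bright and a dim probe set. The bright one, rc_AA875659_s_at, had signals of 1452, 1259 and 1325 in neurons, against 114, 82.1, 99.6 and 61.5 in astrocytes. The dim one, M73049_at, had signals of 192, 211 and 154 in neurons, against 44.5, 32.4, 59.9 and 56.4 in astrocytes. Neither overlapped between the cell types. The log2 differences were 3.78 (SE 0.16, adjusted p = 1.92e-06) and 2.06 (SE 0.26, adjusted p = 0.000545), so the probe sets shared the direction and differed in size. The bright one passed the filter in both cell types, whereas the dim one passed only through the neurons and was bound to differ.

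Prph was dim in both cultures and did not pass the filter. AF031878_at had signals of 41.5, 40.8 and 45.9 in neurons, against 9.8, 10.2, 9.6 and 14.0 in astrocytes. Neuron signals were above the floor on all arrays and below the median of all signals, and astrocyte signals were all under the floor, which makes the difference at least 2.38-fold. Without the filter on low signals its log2 difference was 1.25 (limma adjusted p = 0.000251), in a fit where the floor removes the astrocyte spread.

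Upstream sequence is shown for 3 members to set a neuron-high gene (Ina), a dim neuron-high gene (Prph) and a gene at one level in both cultures (Vim) side by side. RefSeq promoters were found for 4 of the 7 genes, the fourth being Nes. The 250 bases before the annotated start are given on the GRCr8 build, at chr1:255837879-255838128 for Ina, chr7:132097039-132097288 for Prph and chr17:81577011-81577260 for Vim, all on the plus strand. Capitals mark the TATA box letters TATAAA and the GC box letters GGGCGG, searched on both strands (as TTTATA and CCGCCC on the other), and the motifs do not overlap each other.
Ina, upstream of the start: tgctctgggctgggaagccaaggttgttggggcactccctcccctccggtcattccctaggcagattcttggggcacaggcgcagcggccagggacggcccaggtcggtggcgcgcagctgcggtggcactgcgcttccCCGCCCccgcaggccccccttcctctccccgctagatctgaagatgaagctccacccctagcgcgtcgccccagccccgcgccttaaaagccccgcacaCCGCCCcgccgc
Prph, upstream of the start: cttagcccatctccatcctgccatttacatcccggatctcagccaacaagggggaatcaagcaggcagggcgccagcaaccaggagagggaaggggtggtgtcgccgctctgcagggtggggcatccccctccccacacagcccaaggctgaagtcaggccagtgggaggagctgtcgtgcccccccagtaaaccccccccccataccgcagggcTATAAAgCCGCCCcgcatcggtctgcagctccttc
Vim, upstream of the start: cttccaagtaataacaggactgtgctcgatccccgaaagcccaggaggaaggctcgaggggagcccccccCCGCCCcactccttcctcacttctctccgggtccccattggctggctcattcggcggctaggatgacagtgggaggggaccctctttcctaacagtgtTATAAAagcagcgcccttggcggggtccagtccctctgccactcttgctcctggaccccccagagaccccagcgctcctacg
Ina held 0 TATAAA and 2 GC boxes, whereas Prph and Vim held 1 of each, with TATAAA beginning 35 bases before the start in Prph and 82 bases before it in Vim. Of 33469 RefSeq promoters of the same length, 12.9% held TATAAA and 30.5% held GGGCGG. The GC content was 70.8% for Ina, 64.4% for Prph and 62.4% for Vim, against a median of 51.2% over all promoters. These matches describe the letters only.

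Nefh, the heavy subunit of mature axons, gave 2 different pictures. The probe set rc_AA818677_at, whose name marks an expressed sequence tag and for which the annotation lists no accession, had signals of 2.7, 12.2 and 18.9 in neurons, against 145, 199, 374 and 190 in astrocytes. Its log2 difference was -3.60 (SE 0.34, adjusted p = 0.000117), with every astrocyte array above every neuron array. This probe set passed the filter only through the astrocytes and so was bound to differ. Since 2 neuron signals were under the floor and the third just above it, the difference is at least 12.1-fold. The floor also removes most of the neuron spread from the SE. With no floor the log2 difference was -4.69 (limma adjusted p = 0.00137). The probe set X13804cds_at, named for a coding sequence, had signals of 56.9, 11.4 and 32.6 in neurons, against 25.5, 21.6, 39.4 and 12.2 in astrocytes. These values overlapped, lay near the floor in both cultures and did not pass the filter, and without the filter the log2 difference was 0.20 (adjusted p = 0.927). A direction for Nefh thus rests on 1 of its 2 probe sets, and which of them measures the transcript was not tested.

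Vim, the filament protein of immature and mesenchymal cells, ranked between 2 and 7 by brightness on the 7 arrays. X62952_at had signals of 25703, 24235 and 27366 in neurons, against 26975, 27796, 23933 and 26285 in astrocytes. The arrays of the cell types were interleaved, and the log2 difference was -0.02 (SE 0.08, adjusted p = 0.834). Over the 7 arrays Vim spanned 0.22 log2, and 99.7% of the tested probe sets spanned more (median 1.22). Its signal was 77.8% to 94.4% of the highest signal on the same array, and whether such bright signals are compressed was not tested.

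Nes, the filament protein of neural progenitors, was bright in both cultures. M34384_at had signals of 2579, 2384 and 2516 in neurons, against 2074, 1908, 1631 and 2996 in astrocytes at 0, 1, 10 and 100 µg/ml. At the shared doses the 3 neuron arrays lay above the 3 astrocyte arrays, whereas the astrocyte array at 100 µg/ml lay above all others. The log2 difference was 0.42 (SE 0.11, adjusted p = 0.0185), and with all 7 arrays it was 0.25 (adjusted p = 0.39). Without the neuron array at 0 or at 10 µg/ml the adjusted p was 0.0744 and 0.0584. The other Nes probe set, rc_AI030685_s_at, was dim, with signals of 26.7 to 44.1 in neurons and 5.0 to 39.9 in astrocytes, and did not pass the filter.

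**Figure D2:**
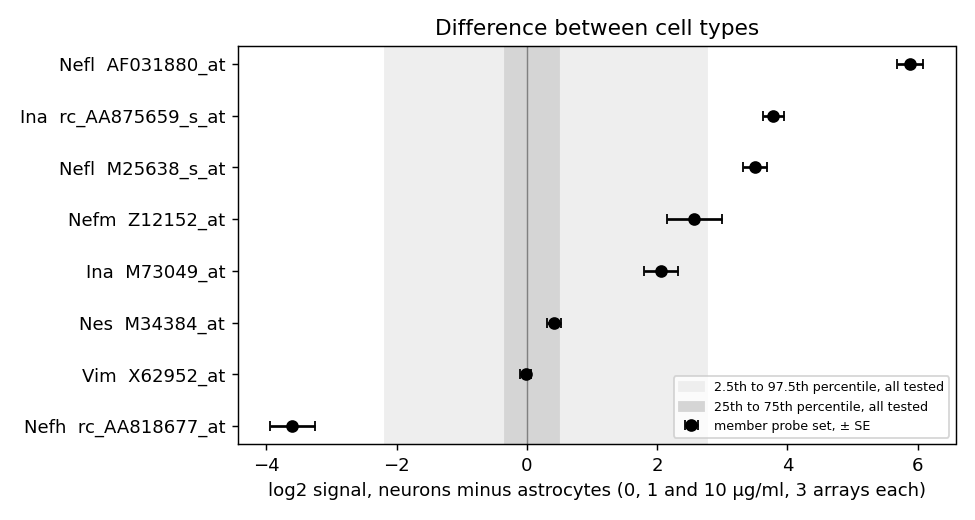
Log2 difference in signal, neurons minus astrocytes, at 0, 1 and 10 µg/ml for the 8 member probe sets that were tested (points, with the SE of the limma fit, 3 arrays of each cell type). The dark grey band spans the 25th to 75th percentile of all 4709 tested probe sets, and the light one leaves out 2.5% at each end. Both Nefl probe sets and the bright Ina probe set lie above the upper band edge of 2.77, Vim and Nes lie near 0, and the tested Nefh probe set lies at -3.60.

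Genes that act on filaments were described from lists that hold other filament genes, linkers, kinases and transport motors. None of the 5 tested of 13 measured keratins, lamins and related genes was higher in neurons, and 2 were lower: Krt19, a keratin of simple epithelia that passed the filter only through the astrocytes (-2.20 log2, adjusted p = 0.0142), and Lmna, the A-type lamin of the nuclear envelope (-0.50, adjusted p = 0.00955). Des, the muscle filament gene desmin, was under the floor on all neuron arrays and on all astrocyte arrays but that at 100 µg/ml. Of 3 linker genes measured, Plec, a linker of intermediate filaments to other structures, differed by -0.10 (adjusted p = 0.6), whereas Fblim1, a filamin-binding adhesion protein, and Jup, the junction protein plakoglobin, were lower in neurons (-1.85, adjusted p = 0.000232, and -0.85, adjusted p = 0.00124).

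Among 14 measured motors and axonal partners of neurofilaments, 13 were tested, of which 3 passed the filter only through the neurons and were bound to differ. Of the 10 that passed in both cell types 5 were called higher in neurons and 1 lower. Dync1i1, an intermediate chain of the dynein motor and 1 of those 3, differed by 6.24 log2, Mapt, the microtubule protein tau, by 2.64 and Klc1, a kinesin light chain, by 2.02. Mag, a myelin protein that contacts the axon, was the 1 lower in neurons (-1.84). Of 15 tested kinases and phosphatases that act on filaments, 8 were higher and 1 lower, with a median of 0.33. The largest differences were Camk2b, a calcium-dependent kinase (3.34), Pak1 (1.65) and Plk1 (1.46), and Cdk5, which phosphorylates neurofilament side arms, differed by 0.56 (adjusted p = 0.0292). The lower one was Prkcd, a protein kinase C (-1.24). These counts stand beside 25% higher and 19.3% lower among all tested probe sets.

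A further question was how filament genes in neurons stood at each dose of extract. Their signals lay close to those of untreated neurons. Over the 7 member probe sets that passed the filter in neurons, log2 changes ran from -0.21 to 0.14 at 1 µg/ml and from -0.32 to 0.09 at 10 µg/ml, with medians of -0.12 and -0.07. None was 2-fold apart from the untreated array, against 0.561% of 4453 probe sets at 1 µg/ml and 0.764% at 10 µg/ml. Slopes were fitted against dose, coded as log10 of (dose + 1), and none of the 8 tested members was called in neurons (limma). The share over all tested probe sets was 0%, with 0 members and 90 of 4709 probe sets at an unadjusted p below 0.05, and a limma fit with a constant prior called 0 as well. With 3 neuron arrays the errors were wide: the slope was 0.12 for Vim (SE 0.14) and -0.04 for Nefm (SE 0.54). Each fit shares 1 estimate of the spread over all 7 arrays, so these errors also hold the scatter among the astrocyte arrays. A lack of calls in neurons is thus not a measure of how little the neuron arrays varied.

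In astrocytes, which also received 100 µg/ml, Nefm was lower at both higher doses and a Nefh probe set was higher at 10 µg/ml. Other members that passed the filter lay within 2-fold of the untreated array. These are single arrays with no error. At 1 µg/ml the log2 changes of the 5 members passing in astrocytes were -0.47 to 0.46, none of them 2-fold, against 2% of 4252 probe sets. At 10 µg/ml 1 was at least 2-fold higher and 1 lower, against 4.3% higher and 2.21% lower over all. At 100 µg/ml none was higher and 1 lower, against 6.63% higher and 19% lower, so a difference of this size was common on that array. The median over all probe sets was -0.26 there, and changes at 100 µg/ml are also given relative to it.

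The largest of these differences was that of Nefm. Its astrocyte signal was 3.14-fold lower at 10 µg/ml (77.9, against 245 untreated) and 2.31-fold lower at 100 µg/ml (106). The log2 changes were -1.65 and -1.21, the second being -0.95 relative to the median. The signal at 1 µg/ml equalled the untreated one, so the arrays formed a higher pair and a lower pair. The slope was -0.73 log2 per unit of coded dose (SE 0.26, unadjusted p = 0.0291, limma adjusted p = 0.0937), which did not pass. Without the array at 10 µg/ml it was -0.64 (adjusted p = 0.00495), in a fit that called 1694 of 4709 probe sets, against 969 in the main fit. Without that at 100 µg/ml it was -1.71 (adjusted p = 0.0296), in a fit that called 156. Leaving out any other single array, of either cell type, it did not pass (adjusted p of 0.223 to 0.264). Across the 8 neuron markers that passed the filter in astrocytes, the median log2 change was -0.01 at 10 µg/ml with none 2-fold lower, and -0.27 at 100 µg/ml with 2 lower. At 10 µg/ml these 8 ran from -0.86 for Gap43, a growth cone protein, to 0.34 for Camk2b. The 9 tested neuron markers that passed only through the neurons were dim in astrocytes, and none was higher at 10 µg/ml. Among them Syp (-1.40, from a signal of 106) and Sv2b (-1.36, from 71.0) were more than 2-fold lower. Sv2b was lower still at 1 µg/ml (11.9, under the floor, a log2 change of -1.99), where Nefm equalled the untreated array. Chgb, Slc12a5 and Slc32a1 were under the floor untreated and at 10 µg/ml. The part of cells with neuron markers in the Nefm values was not tested.

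The rc_AA818677_at probe set of Nefh was 1.38-fold higher at 1 µg/ml, 2.59-fold higher at 10 µg/ml and 1.32-fold higher at 100 µg/ml than in untreated astrocytes. All treated arrays lay above the untreated one, but the highest was in the middle of the dose range, and the slope was 0.21 (SE 0.28, adjusted p = 0.628), or -0.09 without the untreated array. The other Nefh probe set, near the floor, had log2 changes of -0.24, 0.63 and -0.51, with the highest signal also at 10 µg/ml and no 2-fold difference.

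Nes was lower in astrocytes at 10 µg/ml and higher at 100 µg/ml than in untreated cells (log2 changes of -0.35 and 0.53, the second 0.79 relative to the median). None of the treated arrays was 2-fold apart from the untreated one, and the slope was 0.26 (SE 0.15, adjusted p = 0.271). It was -0.33 without the array at 100 µg/ml (adjusted p = 0.284), so its sign rests on that array. The 12 cell cycle genes that passed in astrocytes stood at a median of -1.05 log2 at 100 µg/ml, and their part in the Nes values was not tested. Other progenitor and immature glia genes stood lower at 100 µg/ml: among 5 that passed in astrocytes 4 had log2 changes of -1 or below, with a median of -1.29, against 19% of all probe sets and a median of -0.26. They were Id1, an inhibitor of helix-loop-helix factors (-3.37), Hes1, a repressor downstream of Notch (-1.49), Ptn, a growth factor (-1.29), and Notch1 itself (-1.28). Of 7 reactive astrocyte genes that passed, 3 were at least 2-fold higher at 100 µg/ml and 0 at least 2-fold lower, against 6.63% and 19% of all probe sets. The 3 were Cxcl10 (3.42), a chemokine, Timp1 (1.45), an inhibitor of matrix proteases, and Cd44 (1.19), an adhesion receptor. By less than 2-fold, Serping1 (0.43) and Hspb1 (0.32) stood higher and Cp (-0.64) and Serpina3n (-0.46) lower. The median of the 7 was 0.43.

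The log2 changes of Vim in astrocytes were 0.04, -0.17 and -0.04 at 1, 10 and 100 µg/ml, the last 0.22 relative to the median. Those of the bright Ina probe set were -0.47, -0.19 and -0.89 (-0.63 relative to the median), whereas those of the dim one were -0.46, 0.43 and 0.34. The slope of the bright one was -0.34 (adjusted p = 0.171) and that of the dim one 0.31 (adjusted p = 0.3).

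The bright Nefl probe set was the 1 member called for a rising dose slope in astrocytes (0.53, SE 0.14, limma adjusted p = 0.045), and none was called falling, against 5.03% rising and 15.5% falling over all tested probe sets. Its astrocyte signals were 13.9 and 10.5 at 0 and 1 µg/ml, both under the floor, and 27.1 and 35.1 at 10 and 100 µg/ml, so the slope rests on 2 dim signals. The other Nefl probe set was under the floor on all 4 astrocyte arrays. The call was lost when an offset of 50 replaced the floor (adjusted p = 0.152), with ranked doses (adjusted p = 0.115), with untransformed doses (adjusted p = 0.0786), without the filter (adjusted p = 0.106) and as the mean of both probe sets (0.26, adjusted p = 0.185). It was also lost without any 1 array except the astrocyte array at 10 µg/ml, at adjusted p from 0.0896 to 0.259.

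No difference between the slopes of neurons and astrocytes was called for the 8 tested members (limma adjusted p of 0.594 to 0.959), with 0 at an unadjusted p below 0.05. Over all tested probe sets 0.0212% were called, and 523 of 4709 had an unadjusted p below 0.05. The difference of slopes, neurons minus astrocytes, was 0.69 (SE 0.60) for Nefm and -0.46 (SE 0.32) for the bright Nefl probe set.

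**Figure D3:**
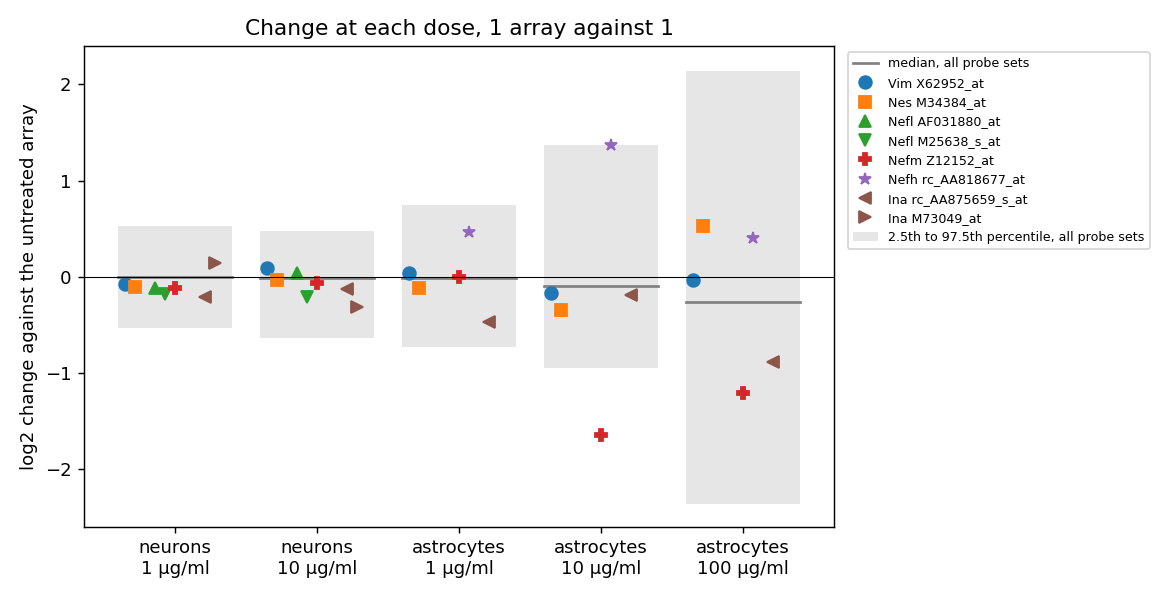
Log2 change of the member probe sets that passed the filter in the cell type, for each treated array against the untreated array of that cell type. The grey bars span all probe sets that passed (4453 in neurons, 4252 in astrocytes) but for 2.5% at each end, and the grey lines are their medians. Members lie near 0 in neurons. In astrocytes at 10 µg/ml Nefm lies at -1.65, below the bar's end of -0.95, and Nefh at 1.37, at the bar's upper end, whereas at 100 µg/ml all members lie inside the wide bar from -2.37 to 2.14.

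The genes with the most similar course over the 7 arrays were taken from 3958 other probe sets, by Pearson's correlation of log2 signals. The 7 arrays share 2 cell types, so high values are common. For Nefl they were a second Mapt probe set (r = 0.999), Bdnf, a neurotrophin (0.997), and Camk2b (0.997). For Nefm they were Fez1, an adaptor in axonal transport (0.998), Dut, a nucleotide-metabolizing enzyme (0.995), and Atp1b1, a sodium pump subunit (0.995). Their astrocyte signals were lower at 10 than at 1 µg/ml, as for Fez1 (2005 at 1 and 1479 at 10 µg/ml). Since the genes were picked for a course like that of Nefm, this is not a separate observation. For Ina they were Slc1a1, a neuronal glutamate transporter (0.998), Prkce, a protein kinase C (0.997), and Olfm1, a secreted protein of neurons (0.996). For the brighter Nefh probe set they were C1qtnf6 (0.997), Cmtm6 (0.996) and Endod1 (0.996), all higher in astrocytes.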

How the data were processed

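Per the labels' protocols, total RNA was isolated on silica membranes, and 100 ng was labelled in a two-cycle biotin procedure for Affymetrix arrays. The authors deposited linear signal intensities, made with GCOS per the submitters' processing notes. The 2%-trimmed means of the arrays were 500.731 to 500.874, so the scale was kept. The number of arrays limits the precision.

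From 8799 probe sets, 59 controls were left out. Symbols came from the platform annotation: 7006 probe sets had 1 symbol, 308 several and 1426 none, and 6985 were found by gene ID in RefSeq, with 0 changed. Signals were floored at 17.9 and log2 was taken, so folds against floored signals are lower bounds. A gene in a list is its brightest probe set. Cell types were compared over the 6 arrays at shared doses, and slopes were fitted with an intercept and a slope per cell type over 7 arrays, with limma 3.58.1 in R 4.3.3 (trended prior, two-sided, Benjamini-Hochberg over all tested probe sets, threshold 0.05). Changes at single doses have no test. The fits were also run on simulated data. The spread there was taken from the neuron arrays for both cell types, so a wider spread among astrocyte arrays was not covered. All member probe sets are named. The 3 most correlated genes were named for members that span 4-fold or more, and from lists up to 3 genes by largest difference or largest change at the top dose. Krt18, Des, Plec, Cdk5 and other genes beyond these were chosen after their values were seen. Members and lists were chosen with earlier results of these data known. Alternatives were other scalings, floors, filters, priors and dose codings, dose as a block, all 7 arrays, and leaving out arrays. Figures used Python 3.11.15 and matplotlib 3.10.9.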

Additional observations from a re-analysis of the deposited data

How the results depend on the processing

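Of the 8 tested members, the calls between cell types held under every alternative that gave them a value, apart from Nes, which was lost with all 7 arrays, with the mean over its probe sets (0.45 log2, adjusted p = 0.103) and without the neuron array at 0 or 10 µg/ml. A filter at the 75th percentile left fewer probe sets and called 4 members. With dose as a block over the 6 arrays, 1871 probe sets were called between cell types. Among member values 20 lost a call or, for untested changes at single doses, a 2-fold difference, and 5 gained one. A further 29 tested values turned sign, 0 of them called in either setting, as did 11 single-dose changes under 2-fold. Prph passed only where it was tested, without the filter (1.25). The log2 change of Nefm in astrocytes at 100 µg/ml was under 2-fold with quantile normalization (-0.83), centring (-0.87), an offset of 50 (-0.92) or against averaged lower doses (-0.66), and that of Nefh at 10 µg/ml was 1.00 as the mean of both probe sets. Nes passed for an astrocyte slope with untransformed doses (adjusted p = 0.0409) and without the array at 10 µg/ml (0.0309).

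The values that turned sign were these. For Vim the cell type difference (-0.02) was 0.09 with quantile normalization and -0.09 to 0.02 leaving out each array, and the astrocyte slope (-0.04) was 0.03 with quantile normalization and 0.12 with centring. Neuron slopes leaving out each array ran from -0.28 to 0.24 for Vim, -0.38 to 0.11 for Nes, -0.40 to 0.21 for the bright Nefl probe set, -0.40 to 0.07 for Nefm, -0.69 to 0.10 for the bright and -0.61 to 0.46 for the dim Ina probe set. The neuron slope of Nes was 0.01 with quantile normalization, 0.03 with centring and 0.00 with untransformed doses (there per µg/ml), and that of Nefl was -0.05 as the mean over probe sets. Astrocyte slopes leaving out each array ran from -0.33 to 0.41 for Nes and from -0.09 to 1.30 for Nefh, which was 0.00 with untransformed doses. Slope differences ran from -0.24 to 0.30 for Vim, -0.63 to 0.32 for Nes, -1.22 to 0.17 for Nefh, -0.34 to 0.44 for the bright and -0.92 to 0.15 for the dim Ina probe set. That of Nefh was 2.14 with no floor, 0.17 with the offset and 0.01 with untransformed doses, that of Nefl 0.00 with untransformed doses, and that of the bright Ina probe set -0.20 as the mean over probe sets.

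Counts over all probe sets moved more. Between cell types 2086 were called, 1286 after filtering at the 75th percentile and 1220 over genes averaged across probe sets, both with fewer tested. For the astrocyte slope 969 were called (237 rising, 732 falling), 10 without a filter, 606 and 580 with those 2 settings, 47 with ranked doses, and 30 to 1694 leaving out each array: 30 without any 1 neuron array, 78 and 1694 without the astrocyte arrays at 1 and 10 µg/ml, and 156 without that at 100 µg/ml. Centring gave 404 rising and 474 falling, and quantile normalization 298 and 553. For the difference of slopes 1 was called, 3 with quantile normalization, a constant prior or 1 value per gene, 14 with centring, 0 with no floor, an offset of 50, no filter, the 75th percentile filter, ranked or untransformed doses, and 0 to 100 leaving out each array, with 100 lacking the 10 µg/ml astrocyte array and 38 lacking the 100 µg/ml one. At 2-fold, neurons had 25 probe sets at the lower dose and 34 at the higher, and in that order 7 and 5 with the offset, 355 and 357 without a filter, 0 and 1 with the 75th percentile filter, 9 and 14 with 1 value per gene, and 22 at 10 µg/ml against the mean of lower doses. Astrocytes had 85 at the lowest dose, 277 at the next and 1088 at the top, and in that order 466, 728 and 1805 without a filter, 22, 115 and 416 with the 75th percentile filter, 30, 145 and 602 with 1 value per gene, and 34 at 1 µg/ml with the offset. At 100 µg/ml 282 were higher and 806 lower, against 457 and 520 with centring and 384 and 559 with quantile normalization. Neuron arrays enter the astrocyte slope only through the shared estimate of the spread, so leaving 1 out changed the errors and not the slopes. Except for this and for smaller numbers tested, the cause was not tested.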

Other observations

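The keratins Krt18 and Krt19, filament proteins of simple epithelia, stood apart in opposite directions in astrocytes at 10 µg/ml. Krt18 signals were 122, 236, 347 and 70.2 along the astrocyte doses from 0 to 100 µg/ml, and its log2 changes were 0.95, 1.51 and -0.80. Krt19 signals were 224, 188, 52.3 and 114, with log2 changes of -0.25, -2.10 and -0.97, and as for Nefm the lowest signal was that at 10 µg/ml. Krt8, the usual partner of Krt18, had log2 changes of 0.22, 0.52 and 0.40. In neurons the mean signal was 399 for Krt18 and 29.4 for Krt19. Each value is 1 array and carries no error.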
